A study of Homo sapiens with 72 samples.

Results

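Expression of genes for long non-coding RNAs (lncRNAs) was compared between 2 related human breast epithelial cell lines before any stimulation, MCF10A-M2 (M2) and MCF10A-M1 (M1). M2 is MCF10A transformed with HA-Ras and is labelled pre-malignant, and M1 is labelled as normal MCF10A. The comparison took the 6 libraries marked as non-stimulated controls, 3 of M2 and 3 of M1, out of 72 in the series. The labels place these controls at 0 h of the TGF-β arm. Genes entered when they reached 0.5 TPM in at least 3 of the 48 libraries of M2 and M1, which kept 21857 of the 96411 genes in the table (22.7%).

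The series gave M2, M1 and the breast cancer line MDA-MB-231 either TGF-β at 5 ng/mL or SB431542 (SB) at 10 µM, which blocks the kinase activity of TGF-β type I receptors, and collected total RNA at 0, 2, 8 and 24 h. Both MCF10A lines were kept in the same growth medium and were moved to medium without serum overnight before sampling. The SB samples of the first time point are titled 0 h but have 0.5 h in the treatment field, and the text names them the earliest SB samples. They are the closest second set of M2 and M1 libraries, and share none with the controls. The replicates are described as biological triplicates; if they did not come from separate cultures, the p-values reflect only the spread among these libraries. M2 is 1 derivative line, so the effect of Ras cannot be told apart from other differences between the lines. The table holds lncRNA genes, and HRAS, keratins and other marker genes of the lines were not analysed here.

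MCF10A is an immortalised line from non-malignant mammary tissue, and its growth depends on supplied epidermal growth factor. Ras proteins are small GTPases that relay growth factor signals to the MAP kinase and PI3 kinase pathways, and an active Ras makes MCF10A cells able to form lesions in mice. lncRNAs are transcripts without a recognised protein product. Some act in the nucleus on chromatin or splicing and some in the cytoplasm, and many are made in few cell types. TGF-β, the ligand used in the other samples, restrains growth in normal epithelium and can favour an invasive, mesenchyme-like state in transformed cells.

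TPM is a measure of transcript abundance corrected for length. In this table each library's TPM are shared out among lncRNA genes only, so a rise of a few abundant genes lowers all others. A handful of genes held most of each library. The 10 most abundant genes held 68.7%, 69.7% and 63.3% of all TPM in the M2 controls, against 62.9%, 61.4% and 62.6% in the M1 controls. The groups did not overlap, and the exact two-sided permutation test gave p = 0.1, the smallest that 3 against 3 libraries allow. The difference in means was 4.93 percentage points, and 3.71 without M2 replicate 2. The share of the 1 most abundant gene ran the other way, at 26.9 ± 5.14% in M2 and 28.2 ± 0.524% in M1 (SD, n = 3 each), well within the spread of M2 (exact permutation p = 1).

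One M2 control stood apart. In its replicate 2, a run of 4 genes with consecutive catalogue numbers held 23.9% of all TPM, against 0.376% and 0.313% in the other M2 controls and 0.976% to 1.57% in the M1 controls. Among the other 47 libraries of M2 and M1 the highest share of the run was 7.66%. Replicates correlated across genes with r of 0.943 to 0.959 in M2 and 0.951 to 0.955 in M1, and libraries of the 2 lines with r of 0.915 to 0.937 (log2 scale; genes are not independent replicates). Read depth is unknown, because TPM does not keep it, and how uncertain low values are cannot be stated.

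Fewer lncRNA genes were detected in M2. At 0.5 TPM or more there were 13948, 12533 and 14232 genes in the M2 controls, against 16239, 15619 and 15771 in the M1 controls. Every M2 library lay below every M1 library, with a difference in means, M2 minus M1, of −2305 genes (exact permutation p = 0.1, two-sided, the smallest possible). To allow for the abundant genes, libraries were also put on a common scale by median-of-ratios, called rescaled below. The counts were then 13668, 13212 and 13445 genes in M2 and 14487, 14125 and 14282 in M1, again without overlap (exact permutation p = 0.1), and the difference in means was −856 genes. Without M2 replicate 2 the difference as deposited was −1786 genes (exact permutation p = 0.1, the smallest that 2 against 3 libraries allow).

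Gene by gene, M2 had more losses than gains on the TPM as deposited. The linear model (limma, adjusted p under 0.05, all 48 libraries in the fit) called 464 genes higher in M2 (2.12% of those tested) and 3745 lower (17.1%), and 6989 genes had an unadjusted p under 0.05. The rescaled values gave 1367 genes higher in M2 (6.25%) and 1584 lower (7.25%). The share of calls that were lower was thus 89% as deposited and 53.7% rescaled, and the excess of losses depends on the scaling. Quantile normalization gave 1392 higher and 1506 lower, while scaling to a total without the 10 most abundant genes left 301 calls higher and 3000 lower. The median difference of all tested genes, M2 minus M1, was −0.34 as deposited and −0.07 rescaled on the log2(TPM + 0.5) scale used throughout, which understates changes of genes at low levels. Without M2 replicate 2 the numbers of calls were 478 higher and 1946 lower as deposited, and 1030 higher and 1118 lower rescaled. With the compared groups fitted alone, limma called 189 higher and 1492 lower as deposited.

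**Figure D1:**
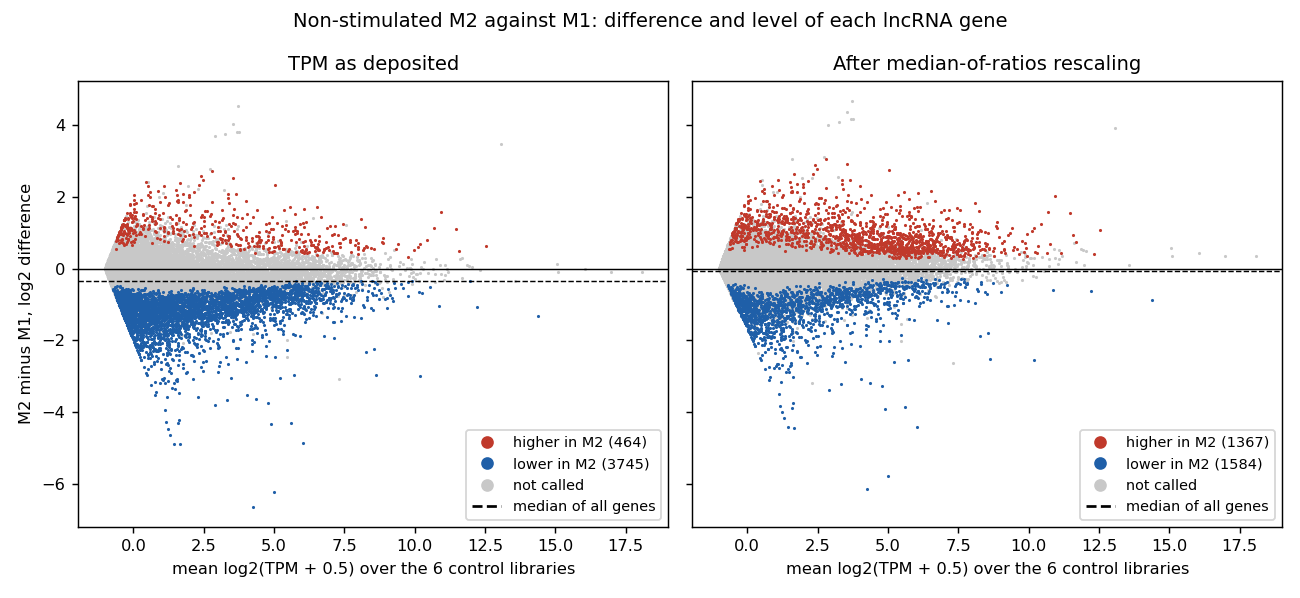
M2 minus M1 log2 difference (vertical axis) against the mean log2(TPM + 0.5) over the 6 control libraries (horizontal axis), 1 point per tested lncRNA gene, as deposited (left) and rescaled (right). As deposited, 464 genes called higher and 3745 called lower lie around a median of −0.34, and rescaling moves the median to −0.07 and the calls to 1367 and 1584.

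No gene was called in opposite directions under the 2 scalings. Called higher under both were 457 genes, with a median level of 11.3 TPM in M2 and 4.70 TPM in M1 and a median log2 difference of 1.01 (1.27 rescaled). Called lower under both were 1584 genes, with a median level of 1.14 TPM in M2 and 4.73 TPM in M1 and a median log2 difference of −1.34 (−0.98 rescaled). These 2 sets are followed below as the genes higher or lower in M2. They were chosen by the control libraries, so their values in those libraries are descriptions.

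The largest single differences were losses. As deposited, a log2 difference of at least 1 in size was found for 230 of the 457 higher and 1336 of the 1584 lower genes, and of at least 2 for 21 and 221. Beyond 3, also as deposited, there were 0 higher and 39 lower genes, and 12 of the lower genes passed 4. Sizes were not counted on the rescaled values, where the leading higher gene reached 3.06. The 3 M2 libraries lay wholly beyond the 3 M1 libraries for 406 of the higher and 1550 of the lower genes. Over all tested genes the groups did not overlap for 4.1% with M2 above and 27.7% with M2 below; since these libraries chose the sets, nothing is read from the counts. Without each control library in turn the sets held 310 to 460 higher and 1115 to 1374 lower genes.

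The balance of gains and losses changed with abundance. Of 6691 genes with a mean under 0.5 TPM, 0.971% were called higher in M2 and 6.56% lower as deposited, and 1.14% and 2.85% after rescaling. Between 1 and 10 TPM (8047 genes) the shares were 1.74% higher and 20.9% lower, or 4.62% and 9.05% rescaled. Rescaled, losses exceeded gains in these classes, while at 10 to 100 TPM (3131 genes) 20.3% were higher and 12% lower, and at 100 TPM and over (595 genes) 34.6% were higher and 10.4% lower. As deposited, losses exceeded gains in each of these classes, with 4.79% higher and 31% lower at 10 to 100 TPM and 10.1% higher and 26.1% lower at 100 TPM and over, so the direction of the balance among abundant genes turns with the scaling. Noise and the pseudocount also limit calls among low genes, and their part in this gradient was not tested.

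The identifiers are those of the NONCODE catalogue. None matched the reference tables used, so the genes have no names, roles, positions or sequences here. Of the 457 higher and 1584 lower genes, 262 and 770 had control libraries that did not overlap and a mean of at least 5 TPM in the higher line. These counts give the genes open to ranking and no more. The 10 of the largest log2 difference in each direction are described by rank, and the first 2 of each by identifier. Their values in the controls chose them.

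NONHSAG044045.3 led the genes higher in M2. It had 17.7, 13.3 and 22.1 TPM in the M2 controls, against 3.06, 1.88 and 1.83 TPM in the M1 controls. The lowest M2 library was thus far above the highest M1 library, and the log2 difference was 2.72 (SE 0.22; limma adjusted p = 6.85e-12; 3.06 rescaled). Over all 24 libraries of each line it ran from 11.6 to 22.1 TPM in M2 (median 14.9) and from 0.467 to 5.12 TPM in M1 (median 1.85), so the lines did not overlap under any treatment or time sampled. In MDA-MB-231 it was at 0 to 0.161 TPM.

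NONHSAG037852.2, the second, had 16.02, 7.63 and 16.15 TPM in the M2 controls, against 1.15, 3.18 and 1.23 TPM in the M1 controls. M2 replicate 2 was the lowest of its group and still above all of M1. The log2 difference was 2.58 (SE 0.38; limma adjusted p = 3.22e-06; 2.88 rescaled). In M2 it later stood at 21.3 ± 2.52, 23.9 ± 5.23 and 3.83 ± 1.61 TPM after 2, 8 and 24 h of TGF-β, and at 13.2 ± 2.71 TPM after 24 h of SB. In M1 it was at 1.57 ± 0.725 TPM after 24 h of TGF-β and 0.541 ± 0.181 TPM after 24 h of SB (SD, n = 3 each).

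The other 8 leading higher genes had log2 differences of 2.09 to 2.52. The third had 28.7, 21.6 and 33.3 TPM in M2 and 4.33, 4.65 and 4.09 TPM in M1 (log2 difference 2.52, limma adjusted p = 1.7e-13). The ninth had 8.92, 8.48 and 8.85 TPM in M2 and 1.29, 1.82 and 1.77 TPM in M1. The seventh was the most abundant and the least certain of the 10. It had 83.8, 52.5 and 86.9 TPM in M2, against 6.45, 9.32 and 44.4 TPM in M1, and 1 M1 library lay close to the M2 range. Its limma adjusted p was 0.0339 with all libraries, and 0.058 to 0.174 in the 5 of 6 fits that left out 1 control library and lost the call (all but the fit without M1 replicate 3). It was 0.114 with the compared groups alone and 0.0696 without a filter on low values (limma). The fourth had 8.26, 13.7 and 17.9 TPM in M2, against 3.11, 0.573 and 3.07 TPM in M1, and its call was lost when the compared groups were fitted alone (limma adjusted p = 0.0584). Of the 10, only the sixth fell below 0 at 24 h. With SB it was called lower in M2 as deposited (log2 −1.32, limma adjusted p = 0.00081) but not rescaled (−0.34, limma adjusted p = 0.377). With TGF-β it was not called (−0.65, limma adjusted p = 0.0957, and −0.41 and 0.3 rescaled).

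**Figure D2:**
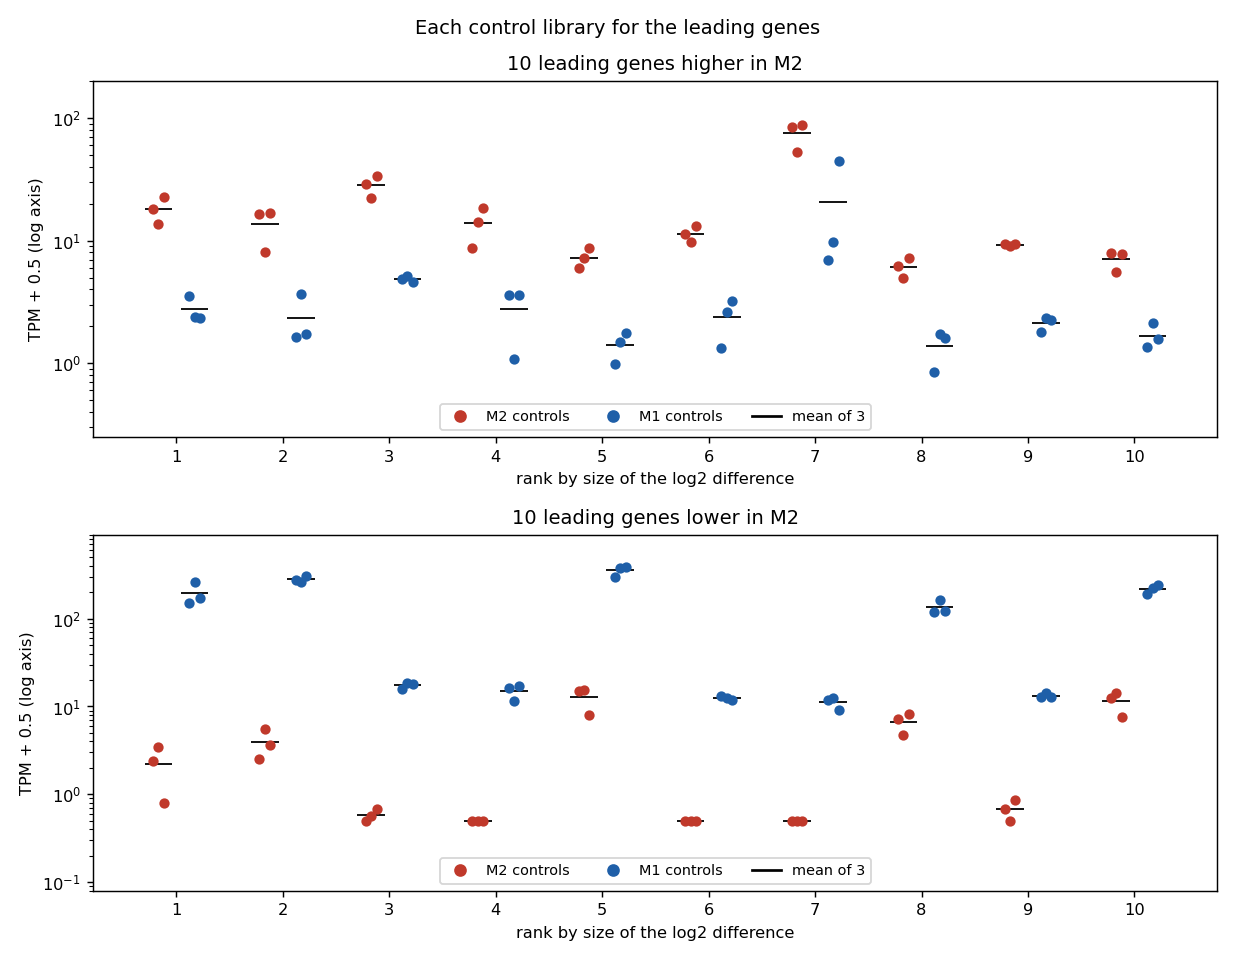
TPM + 0.5 on a log axis in each control library of the 10 leading genes higher in M2 (top) and lower in M2 (bottom), by rank; points are libraries, M2 left of M1, and bars are means of 3. In every gene the lines do not overlap, and the gaps are wider among the lower genes, of which those ranked 4, 6 and 7 sit at 0 TPM in the 3 M2 controls.

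The largest differences of all were losses in M2. NONHSAG009722.2 had 1.91, 2.99 and 0.307 TPM in the M2 controls, against 152, 258 and 169 TPM in the M1 controls. The log2 difference was −6.63 (SE 0.36; limma adjusted p = 1.76e-17; −6.15 rescaled). It never passed 3.38 TPM in any of the 24 M2 libraries (median 0.915), while M1 ranged from 21.6 to 258 TPM (median 154). MDA-MB-231, a malignant line, had 33.5 to 324 TPM (median 89.4), so the low level is not shared by it.

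NONHSAG079377.1 had 2.05, 5.10 and 3.16 TPM in the M2 controls, against 275, 263 and 301 TPM in the M1 controls, with no overlap. The log2 difference was −6.23 (SE 0.27; limma adjusted p = 2.19e-20; −5.77 rescaled). This gene, unlike the first, reached high levels in M2 under TGF-β. Its M2 level was 7.63 ± 3.80, 38.5 ± 9.48 and 334 ± 44.9 TPM after 2, 8 and 24 h of TGF-β (SD, n = 3), and 2.65 ± 0.662 TPM after 24 h of SB. In M1 the levels were 350 ± 30.5, 608 ± 28.8 and 911 ± 106 TPM at those TGF-β times and 39.2 ± 2.41 TPM after 24 h of SB. At 24 h of TGF-β the M2 libraries reached 345, 285 and 373 TPM, within or above the range of the M1 controls. As deposited they stayed below M1 under the same treatment (log2 difference −1.45, limma adjusted p = 3.68e-05). Rescaled, the difference at that time was −0.20 and was not called (limma adjusted p = 0.578).

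**Figure D3:**
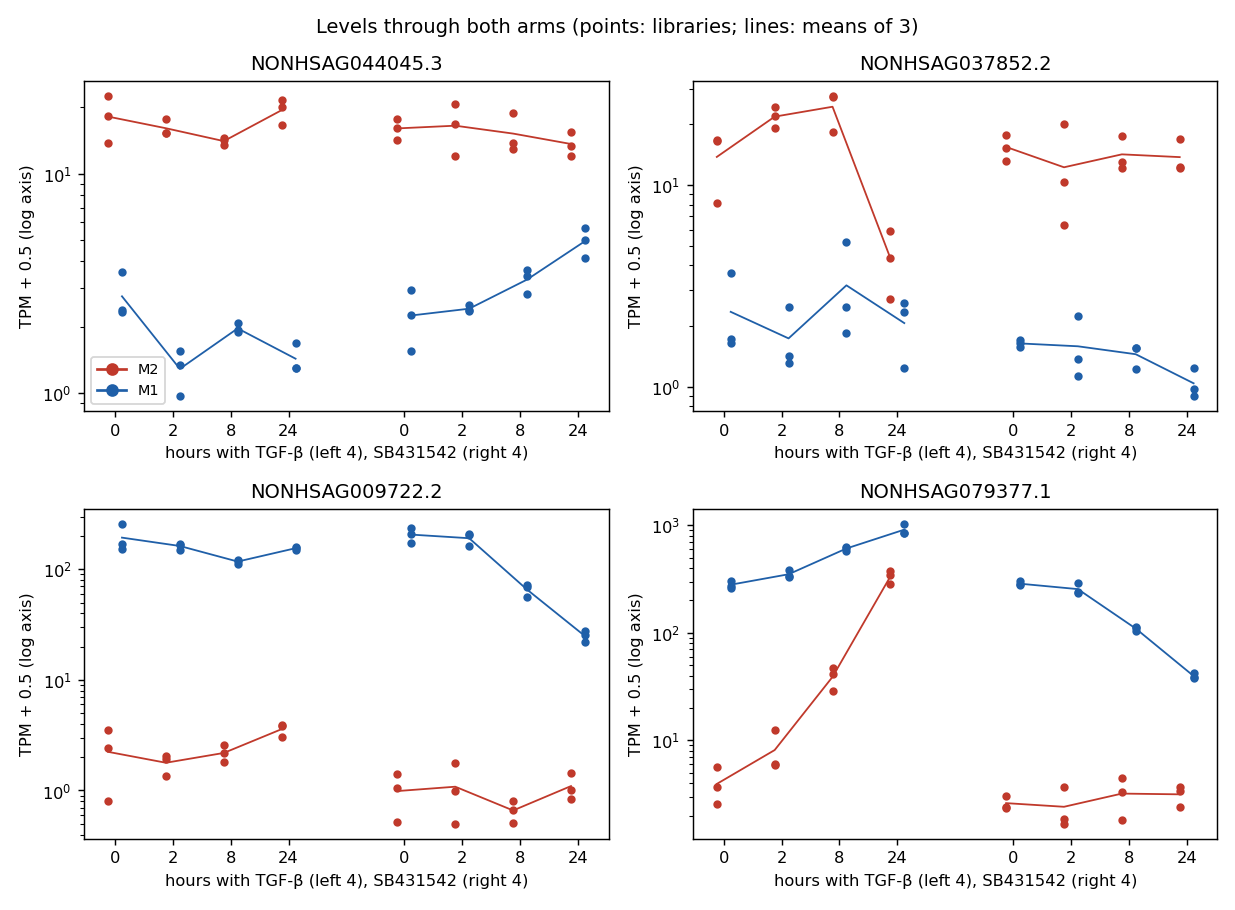
TPM + 0.5 on log axes through the TGF-β arm (left 4 positions) and the SB arm (right 4 positions), in hours, for the 2 leading genes of each direction; points are libraries, M2 (red) drawn left of M1 (blue), and lines join means of 3. NONHSAG044045.3 and NONHSAG009722.2 keep the lines apart throughout, and NONHSAG079377.1 climbs in M2 to 334 ± 44.9 TPM at 24 h of TGF-β.

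The other 8 leading lower genes stood at no more than 14.8 TPM in any M2 control. The fifth had 14.4, 14.8 and 7.45 TPM in M2, against 300.3, 378 and 386 TPM in M1 (log2 difference −4.86). The tenth, whose catalogue number is next to that of the fifth, had 12.1, 13.6 and 7.15 TPM in M2, against 188, 225 and 241 TPM in M1 (−4.29). The 2 moved alike across the controls, while in the earliest SB samples their log2 differences were −5.70 for the fifth and −4.47 for the tenth. Whether they share reads was not tested. The eighth had 6.72, 4.28 and 7.63 TPM in M2, against 117, 162 and 123 TPM in M1 (−4.34).

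Of the 10, 3 had no TPM in any M2 control. The genes ranked 4, 6 and 7 were listed at 0 in all 3 M2 controls, and stood at 15.6, 11.2 and 16.8 TPM, at 12.6, 11.8 and 11.3 TPM, and at 11.3, 12.03 and 8.66 TPM in the M1 controls. The gene ranked 3 had 0, 0.0724 and 0.185 TPM in M2, against 15.2, 18.0 and 17.7 TPM in M1. The ninth had 0.186, 0 and 0.364 TPM in M2, against 12.4, 13.6 and 12.3 TPM in M1. All 10 genes stayed called lower by limma at an adjusted p under 0.05 in each of the other settings tried.

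Across all tested genes, 21 were listed at 0 in every M2 control and at 1 TPM or more in every M1 control, and 2 showed the reverse. Leaving out 1 control library, which makes the condition easier to meet, gave 27 (without M2 replicate 2) to 50 (without M2 replicate 3) genes, and 2 to 6 of the reverse, with 5 without M2 replicate 2. Of the 21, 12 were also listed at 0 in the 3 earliest SB samples of M2, 13 stayed under 0.5 TPM in all 24 M2 libraries and 2 were listed at 0 in all 24. In M1, 15 of the 21 were above 0 in each of the other 21 libraries. One reached 24.0 TPM in an M2 library of another condition. A 0 in such a table can also be a failed estimate.

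Of the 10 genes with the highest mean TPM in the controls, 1 passed the test, beside 19.3% of all tested genes (13.5% rescaled). This gene, ranked 6, had 14591, 14457 and 11238 TPM in M2, against 34915, 31824 and 33418 TPM in M1, a log2 difference of −1.32 (limma adjusted p = 2.61e-08; −0.88 and 0.00456 rescaled). Its call in the controls was lost with the compared groups fitted alone (limma adjusted p = 0.0696). As deposited it was also called lower in all other matched conditions. Rescaled, it was not called at 8 and 24 h of TGF-β or at 2, 8 and 24 h of SB (log2 −0.25 to 0.11, limma adjusted p = 0.461 to 0.918). The most abundant gene had 309385, 211294 and 287251 TPM in M2 and 283021, 275895 and 286115 TPM in M1, with M1 inside the range of M2. The gene ranked 7 had 47634, 34669 and 14198 TPM in M2, against 74.9, 10425 and 21594 TPM in M1, and the lines overlapped (limma adjusted p = 0.62).

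The earliest SB samples gave a second, separate set of M2 and M1 libraries. Limma took each gene's spread from all 48 libraries, so this comparison and those of the other conditions share it with the controls. The part of this in the shares called again was not tested. There limma called 838 genes higher in M2 (3.83% of those tested) and 3138 lower (14.4%) as deposited, and 1777 higher (8.13%) and 2146 lower (9.82%) rescaled. The 3976 calls as deposited became 2602 without M1 replicate 3 of these samples and 2621 without M2 replicate 2. Of the 457 genes higher in the M2 controls, 353 were called higher again after rescaling (77.2%) and 0 were called lower. Of the 1584 lower genes, 860 were called lower again (54.3%) and 1 was called higher. As deposited the counts were 319 (69.8%) and 1034 (65.3%), against the backgrounds of 3.83% and 14.4%. Without M2 control replicate 2 the shares called again were 81.1% and 60.7%, rescaled.

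The medians kept their direction and were smaller in size than in the controls that chose the sets. Rescaled, the median log2 difference in the earliest SB samples was 1.13 for the higher genes and −0.72 for the lower ones, beside −0.12 for all tested genes. In the controls the 2 sets had 1.27 and −0.98. Over all tested genes the differences in the 2 sets of libraries correlated with r of 0.6 as deposited and 0.616 rescaled (genes are not independent replicates). The sign was kept by 437 of the 457 higher genes (95.6%) and 1534 of the 1584 lower genes (96.8%). The share of all tested genes with each sign was not counted. Genes were also grouped by the size of their difference in the controls as deposited, with calls in the earliest SB samples taken rescaled. Among lower genes the share called again rose with that size. It was 37.9% of 248 genes below a log2 difference of 1, 53.6% of 1115 between 1 and 2, and 76% of 221 from 2 upward. Larger differences pass a threshold more easily, so nothing is read from this rise. The higher genes had no such order, with 84.1% of 227, 67.9% of 209 and 95.2% of 21. Because the 2 scalings differ in the median of all genes, the 2 sets cannot be compared size for size here.

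The leading genes held in the second set. NONHSAG044045.3 had 13.8, 15.6 and 17.3 TPM in the earliest SB samples of M2, against 1.06, 1.77 and 2.43 TPM in those of M1 (log2 difference 2.87, limma adjusted p = 1.97e-12). NONHSAG037852.2 had 12.7, 17.3 and 14.8 TPM in M2 and 1.15, 1.20 and 1.07 TPM in M1 (3.22, limma adjusted p = 4.03e-08). For the lower pair the log2 differences were −7.81 for NONHSAG009722.2 and −6.79 for NONHSAG079377.1 (limma adjusted p = 1.03e-19 and 1.62e-21). All 20 leading genes were called in the same direction there, with adjusted p-values up to 0.0438, that of the seventh higher gene.

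**Figure D4:**
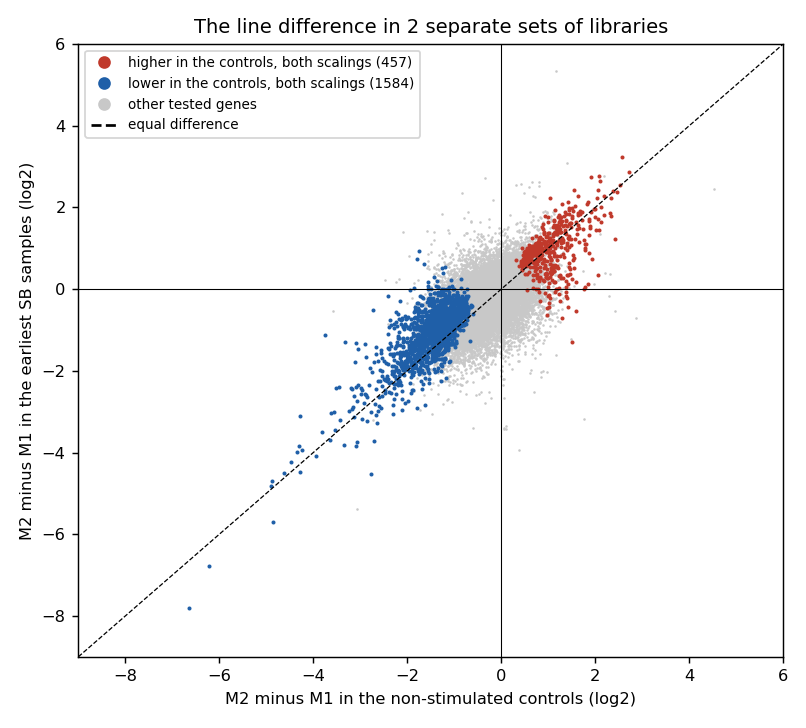
M2 minus M1 log2 difference in the non-stimulated controls (horizontal axis) and in the earliest SB samples (vertical axis), as deposited, 1 point per gene, with 7 genes outside the axes. The 457 higher (red) and 1584 lower (blue) genes of the controls lie mostly in the quadrants of equal sign, and the lower genes reach beyond −6 in both sets.

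Whether the line difference itself differed between controls and earliest SB samples was tested as an interaction over all genes. Limma called 1 of the 21857 genes, and 1644 had an unadjusted p under 0.05 (1 and 1540 rescaled). Without M2 control replicate 3 the test called 18 genes. The gene, singled out by the test, had 0.274, 0 and 0 TPM in the M2 controls, against 1.44, 1.67 and 1.25 TPM in the M1 controls. In the earliest SB samples it had 0.629, 0.117 and 0.742 TPM in M2 and was listed at 0 in all 3 libraries of M1. The lines changed places, with 1.67 TPM as the highest value. At 2, 8 and 24 h of TGF-β and of SB the gene was not called in either direction (log2 −0.33 to 0.20 as deposited). None of the 20 leading genes was called by the interaction test, which does not show that their difference was equal in the 2 sets.

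The line difference was then followed through all 7 other matched conditions (2, 8 and 24 h of TGF-β, the earliest SB samples and 2, 8 and 24 h of SB), none of which shares libraries with the controls. Rescaled, 209 of the 457 higher genes (45.7%) were called higher in each of the 7, beside 3.14% of all tested genes. For the lower set, 206 of the 1584 (13%) were called lower in each, beside 1.39%. The sign was kept in all 7 by 309 higher and 891 lower genes. As deposited the sign was kept in all 7 by 193 and 1379. Signs were not counted over all tested genes under either scaling. As deposited the median of all tested genes was below 0 in each of the 7 (−0.27 to −0.78), so nothing is read from the sign counts. The shares called in all 7 as deposited were 17.7% of the higher genes, beside 0.416% of all tested genes, and 38.5% of the lower genes, beside 5.63%. Which set had the larger share thus turned with the scaling. For sets drawn without M2 control replicate 2 the rescaled counts were 236 higher genes (51.3%) and 180 lower genes (16.1%), and without M2 replicate 3 they were 128 (39.1%) and 187 (14.1%). In the full sets, 50 higher and 238 lower genes were called in the opposite direction in at least 1 of the 7, rescaled. As deposited these were 143 and 30. Rescaled, 48 higher and 209 lower genes were called in the same direction in none of the 7. Such counts were not made over all tested genes.

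The medians show how the sets moved under treatment. Rescaled, the higher genes had a median log2 difference of 1.20, 1.04 and 0.91 after 2, 8 and 24 h of TGF-β, and of 1.26, 1.17 and 1.27 at the same times of SB. The lower genes had medians of −0.64, −0.62 and −0.45 with TGF-β and −0.72, −0.60 and −0.57 with SB. All tested genes lay between −0.13 and −0.24 in these 6 conditions. After 24 h of TGF-β 37 of the higher genes (8.1%) were called lower and 173 of the lower genes (10.9%) were called higher in M2 than in M1, beside 17.8% and 14.2% of all tested genes. As deposited, the median of the higher genes was 0.04 at 24 h of TGF-β and 0.22 at 24 h of SB, while that of all genes stood at −0.70 and −0.78. Also as deposited, 110 of the higher genes (24.1%) were called lower at 24 h of TGF-β, beside 45.4% of all tested genes. Called higher were 135 (29.5%) of them, beside 2.66%. Of the lower genes 15 (0.947%) were called higher.

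**Figure D5:**
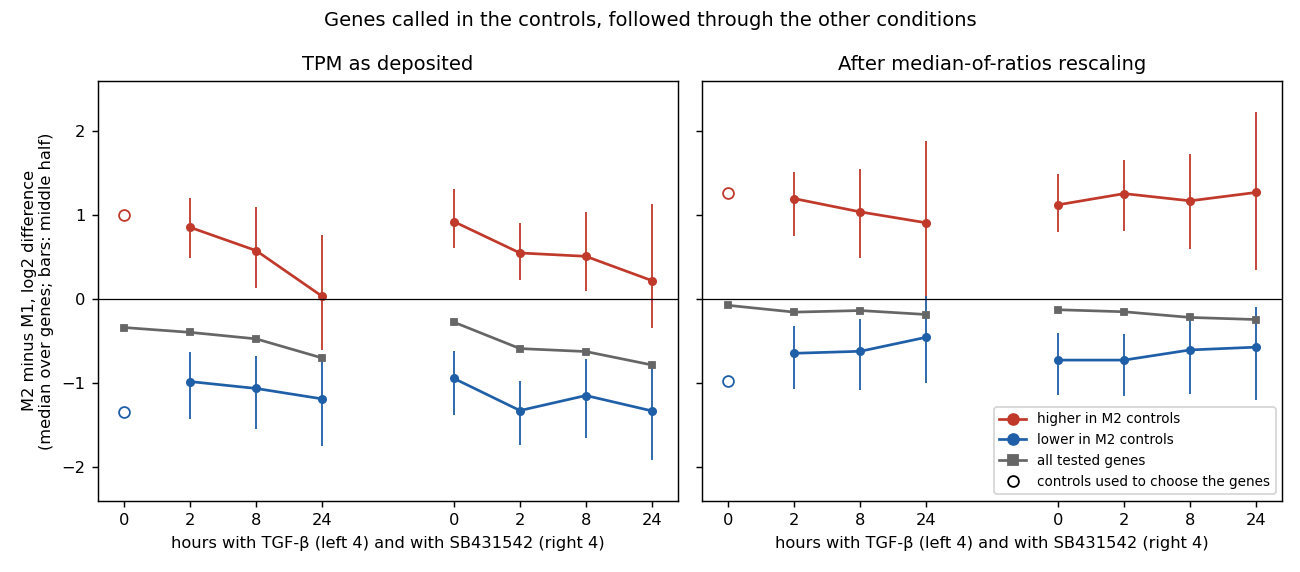
Median M2 minus M1 log2 difference of the 457 higher genes (red), the 1584 lower genes (blue) and all tested genes (grey) by hours of TGF-β (left 4 positions) and of SB (right 4 positions), as deposited (left panel) and rescaled (right panel); bars span the middle 50% of genes and open circles are the controls that chose the sets. Rescaled, the sets stay apart on either side of all genes through 24 h, with the blue medians closest to grey at 24 h.

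The same 2 sets were set against the difference between the 2 treatments at 24 h, TGF-β minus SB within each line, called the response below. Its libraries do not include the controls. A rise with TGF-β and a fall with SB cannot be told apart in this difference. Among the genes lower in M2, calls higher with TGF-β outnumbered calls lower with it. In M2, 442 of the 1584 lower genes (27.9%) were called higher with TGF-β than with SB and 88 (5.56%) lower, beside 9.78% and 7.71% of all tested genes, rescaled. In M1 the counts were 350 (22.1%) higher and 91 (5.74%) lower, beside 6.52% and 4.83%. In both lines at once 235 of the lower genes (14.8%) were called higher and 36 (2.27%) lower, beside 3.58% and 2.38% of all tested genes.

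Among the genes higher in M2, calls lower with TGF-β were the more frequent. In M2, 171 of the 457 (37.4%) were called lower with TGF-β than with SB, beside 7.71%, and 43 (9.41%) higher, beside 9.78%. In M1, 81 (17.7%) were lower and 61 (13.3%) higher, beside 4.83% and 6.52%, so both directions exceeded the background. The median response of the higher genes was −0.36 in M2 and −0.09 in M1, and that of the lower genes 0.24 in M2 and 0.16 in M1, with all genes at 0.02 in M2 and −0.01 in M1 (log2, rescaled). As deposited the higher genes were at −0.51 in M2 and −0.29 in M1, the lower genes at 0.06 in M2 and −0.05 in M1, and all genes at −0.03 in M2 and −0.20 in M1, so the sign of the lower genes in M1 turned with the scaling. Called lower in both lines were 71 of the higher genes (15.5%), and higher in both 24 (5.25%), beside 2.38% and 3.58%. The difference between the lines in these shares was not tested.

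On the TPM as deposited the shares had other sizes, and the share of lower genes called higher with TGF-β was not larger in M2 than in M1. Of the lower genes, 12.7% were called higher and 6.06% lower with TGF-β in M2, beside 3.06% and 7.51% of all tested genes, and 13.4% and 8.33% in M1, beside 3.79% and 8.28%. Of the higher genes, M2 had 3.72% called higher, above the background of 3.06% where the rescaled share lay below its own, and 39.6% called lower, and M1 had 7.44% and 26.7%. Sets drawn without each control library in turn gave 27.4% to 32% of lower genes called higher and 32.1% to 40.3% of higher genes called lower with TGF-β in M2, rescaled. The response libraries share the lines, the 48-library fit and the filter with the controls, and the sets were not matched to other genes in abundance; the part of either in these shares was not tested.

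The 4 genes followed by identifier did not all take the direction of their set. NONHSAG079377.1, lower in M2, exceeded its SB level at 24 h of TGF-β by 6.75 on the log2 scale in M2 and by 4.52 in M1 (limma adjusted p = 2e-21 and 7.52e-16). NONHSAG009722.2, also lower, differed by 1.74 in M2, where it stood at 3.09 ± 0.461 TPM with TGF-β and 0.596 ± 0.306 TPM with SB, and by 2.64 in M1, where it stood at 155 ± 5.53 TPM with TGF-β and 24.4 ± 2.69 TPM with SB (SD, n = 3 each; limma adjusted p = 0.000434 and 7.14e-07). The M1 controls stood at 193 ± 56.8 TPM for NONHSAG009722.2, so its M1 mean was below the controls with SB and not above them with TGF-β. NONHSAG037852.2, higher in M2, was lower with TGF-β than with SB in M2 (log2 −1.72, limma adjusted p = 0.000989). In M1 it was not called as deposited (0.93, limma adjusted p = 0.103) and was called higher with TGF-β after rescaling (1.04, limma adjusted p = 0.0157). NONHSAG044045.3, also higher, was not called in M2 as deposited (log2 0.51, limma adjusted p = 0.177) and was called higher after rescaling (0.81, limma adjusted p = 0.00276), and it was lower with TGF-β in M1 (−1.78, limma adjusted p = 1.8e-07).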

How the data were processed

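The authors deposited TPM values per lncRNA gene for 72 libraries of total RNA, isolated with TRIzol per the labels' protocols. The tools listed in the submitters' processing notes are StringTie 1.3.6, HISAT2 2.2.0, cutadapt 2.10 and FastQC, with GRCh38 as the build. The annotation release was not given in the sources used here, nor were strandedness and parameters, so overlapping, antisense or near-identical genes cannot be told apart. The columns were matched to samples by their labels, and no 2 columns were identical.

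Values were transformed to log2(TPM + 0.5) and tested in R 4.3.3 with the linear models of limma 3.58.1 and a trended eBayes step; data.table (version 1.17.8) read the values. The 48 M2 and M1 libraries entered 1 fit of 16 groups without a block. Tests were two-sided, with Benjamini-Hochberg adjustment over 21857 genes and a threshold of 0.05. Rescaling divided each library by the median of its ratios to the geometric mean. Only genes above 0 in all 48 M2 and M1 libraries set this median. Counts and shares per library were compared with exact permutation tests. The limma step was run on simulated data that held no difference in scaling between the 2 control groups and no outlying library. That run does not bear on the choice of scaling or on M2 replicate 2. Figures were drawn with matplotlib 3.10.9 and pandas 2.3.3.

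Named genes were called under both scalings in 1 direction, had non-overlapping control libraries and reached a mean of 5 TPM in the higher group; the 10 of largest difference per direction were taken, plus the 10 most abundant. Because 0 of 96411 identifiers matched the reference tables, identifiers are printed for 2 per direction, and the planned list of lncRNA names and the checks of marker genes and HRAS were not analysed here. The comparison, gene sets and settings were chosen with earlier results of these data known. Other settings were the pseudocount, the filter, other scalings, fits of only the groups compared, a block for replicate number, and fits without each library in turn.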

Additional observations from a re-analysis of the deposited data

Results flagged for a closer look

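One lncRNA gene had a line difference that differed between the controls and the first SB time point by a test of the difference itself. Its log2 difference, M2 minus M1, was −1.75 in the controls and 0.93 in the earliest SB samples, a difference of −2.68 (SE 0.41; limma adjusted p = 0.00264; −2.29 and 0.0275 rescaled). Its highest value in these 12 libraries was 1.67 TPM. At 2, 8 and 24 h of TGF-β and of SB its line difference was not called. Other settings gave other counts of genes called by the interaction test, listed with the results that depend on the processing.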

How the results depend on the processing

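In the controls, all 10 leading lower genes kept direction and call in every setting, and the leading higher genes did so except the fourth and seventh in the cases given. The controls gave 4209 calls; the count was 1681 with the compared groups alone, 2148 without M2 replicate 2 and rescaled (chosen after seeing the data, as were the gene sets and the genes listed at 0 without each control library), and 2148 to 4152 without 1 control library, the lowest as deposited being 2424 without M2 replicate 2. In the earliest SB samples (3976 calls) the count was 1612 with the compared groups alone and 2602 to 3905 without 1 library. At 2 h of TGF-β (5658) it was 3705 with the compared groups alone and 3688 to 5190 without 1 library, and at 8 h (7136) it was 4521 when the scaling total omitted the 10 most abundant genes and 4483 to 6748 without 1 library. The lowest values came without M1 replicate 3 at 2 h and without M2 replicate 1 at 8 h. At 2 h of SB (8528) it was 4765 after rescaling and 1954 with the compared groups alone. Quantile normalization gave 3412, 3950 and 5531 calls at 2, 8 and 24 h of TGF-β and 4009, 4548 and 6286 at 2, 8 and 24 h of SB, where the deposited TPM gave 10502 at 24 h of TGF-β, 9538 at 8 h of SB and 11909 at 24 h of SB. TGF-β against SB at 24 h gave 3822 calls in M2 after rescaling and 3578 after quantile normalization (2311 as deposited), and 1689 in M1 with the compared groups alone (2639). The interaction, with 1 call, gave 0 with a pseudocount of 0.1, 0 with a mean of at least 1 TPM, 6 without a filter, 2 with the compared groups alone and 1 to 18 without 1 library. The share of the 1 most abundant gene differed by −1.24 percentage points, M2 minus M1, opposite in sign to the 4.93 of the 10 most abundant. With the replicate number as a block, 4227 genes were called in the controls and no call count moved by over 1.5 times; deviations of same-numbered M2 and M1 controls correlated at 0.007 to 0.056, and 2 of 3 correlated best with their own number, so the numbers were not taken to pair the libraries. The causes were not tested. TPM keeps no depth, so the precision of genes near 0.5 TPM is unknown.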
